A study of Mus musculus with 8 samples.

Results

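Of the 55114 genes in the deposited table, 3527 carry the annotation class misc_RNA, snoRNA, scaRNA, snRNA or ribozyme, and 126 of these were chosen by their summed read count, of at least 40 over the 8 mice. They are the small structural noncoding RNA genes that left more than a trace in the libraries: 84 of 1507 snoRNA genes, 25 of 1385 snRNA genes, 12 of 562 misc_RNA genes, 5 of 51 scaRNA genes and 0 of 22 ribozyme genes. The level of these RNAs is therefore what selected them and is given as a description. Just inside the limit, Gm23027, Gm24313 and Gm24769 had 41 counts each, and just outside it Gm24060 and Gm25604 had 39, while Gm23264 and Snora2b had 38.

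The RNA came from intestinal crypts of C57BL/6 mice aged 8 weeks, 4 Mex3a-/- mice (KO) and 4 littermate controls (Ctrl). In the KO mice, exon 1 and part of exon 2 of Mex3a, which encodes an RNA-binding protein of intestinal stem cells, are deleted in every cell and not in the epithelium alone. Crypts were shaken free with EDTA from the intestine, of which the segment is not given, and their total RNA was sequenced. How the RNA was selected for the libraries, and whether the strand of a read was kept, is not given in the sources used here.

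Small structural RNAs work as parts of RNA-protein particles rather than as messages. 7SK, made by RNA polymerase III, holds the elongation kinase P-TEFb inactive together with HEXIM proteins. Box C/D snoRNAs guide 2'-O-methylation and box H/ACA snoRNAs guide pseudouridylation of ribosomal RNA, scaRNAs do the same for spliceosomal RNAs in Cajal bodies, and snRNAs form the core of the spliceosome. Most snoRNAs of mammals are cut out of introns, many of them in genes for ribosomal proteins and translation factors. Mature forms of these RNAs carry no poly(A) tail.

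Reads counted on genes ranged from 20324184 to 24726221 in Ctrl and from 23489180 to 30654105 in KO. Mex3a had 236 to 328 counts in Ctrl and 6 to 28 in KO. Crypt markers were present in every mouse, the summed level of Lgr5, Olfm4, Ascl2 and Smoc2 being 3989 to 4786 CPM (counts per 1000000, scaled by TMM factors) in Ctrl and 2940 to 3667 in KO. Replicates 1 and 2 of each genotype carried Y-chromosome transcripts, and replicates 3 and 4 carried Xist.

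The RNAs with the most counts were 7SK, Snord104 and Snora31, whose sequences are shown because the results below turn on the first and because the others are examples of the guide RNA classes. The sequences are GENCODE M21 transcripts on GRCm38. Rn7sk (ENSMUSG00000065037, chr9:78175303-78175633, minus strand) is 331 bases long, of which bases 1 to 300 are given, with capitals at the tetranucleotide GATC, a letter run that recurs in the 5′ hairpin HEXIM proteins bind. In Snord104 (ENSMUSG00000065126, chr11:106500993-106501062, plus strand) capitals mark box C (TGATGA) and box D (CTGA), and in Snora31 (ENSMUSG00000065147, chr14:75847905-75848034, plus strand) they mark the ACA box.
Rn7sk: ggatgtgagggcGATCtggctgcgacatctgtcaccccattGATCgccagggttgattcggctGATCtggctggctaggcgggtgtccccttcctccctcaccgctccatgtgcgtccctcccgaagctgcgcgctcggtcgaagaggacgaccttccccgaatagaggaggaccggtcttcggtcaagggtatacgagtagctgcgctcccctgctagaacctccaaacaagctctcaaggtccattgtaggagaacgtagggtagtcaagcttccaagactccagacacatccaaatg
Snord104: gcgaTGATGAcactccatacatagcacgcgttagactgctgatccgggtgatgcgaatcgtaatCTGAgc
Snora31: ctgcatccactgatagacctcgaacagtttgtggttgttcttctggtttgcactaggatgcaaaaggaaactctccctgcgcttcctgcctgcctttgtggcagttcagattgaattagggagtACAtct

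Of the 58 small RNA genes with enough counts for a test, Rn7sk had the largest log2 fold change in either direction. Rn7sk had 57, 41, 64 and 46 counts in Ctrl replicates 1 to 4 and 317, 167, 114 and 278 in KO replicates 1 to 4. All 4 KO mice lay above all 4 Ctrl mice. As a share of all counts of a library without TMM scaling (raw CPM), Rn7sk made up 1.86 to 3.15 in Ctrl and 4.72 to 13.5 in KO, with 95% Wilson intervals that cover counting error only. The interval of Ctrl replicate 3 (2.47 to 4.02) met that of KO replicate 3 (3.93 to 5.67), and the intervals of the other KO mice began at 5.84 or above. The mean was 2.40 ± 0.590 CPM in Ctrl and 8.49 ± 3.67 in KO (SD, n = 4 mice each), a ratio of 3.54. On the log2 scale the fold change of KO over Ctrl was 1.82 with a standard error of 0.32.

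The difference in Rn7sk had an unadjusted p of 0.000285 by the quasi-likelihood test of edgeR, the 12th smallest of 16109 genes, and did not pass after Benjamini-Hochberg adjustment (adjusted p = 0.378). With DESeq2 on the same genes the log2 fold change was 1.83 and the adjusted p 9.39e-05. Of single values, a two-sided exact permutation test of log2(CPM + 0.1) gave p = 0.0286, the smallest that 4 unpaired mice against 4 allow. The test shuffled the mice freely, without regard to replicate number. Exchanges within the 4 same-numbered pairs alone could not give a p this small. In the mice with Y-chromosome transcripts the mean went from 2.27 CPM in Ctrl to 9.89 in KO (2 mice each), and in the mice with Xist from 2.52 to 7.09 (2 mice each), so the direction was the same in both.

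Rn7sk overlaps no other gene of the annotation. It has no near-identical copy among the genes of the same annotation classes that have a GENCODE M21 transcript. Its nearest neighbours on either side did not pass the test. Ick, a kinase gene that ends 3196 bases away, had 61.0 ± 4.77 CPM in Ctrl and 67.4 ± 14.4 in KO (SD, n = 4), and the lincRNA C920006O11Rik, 281 bases away, had 1.95 ± 0.499 and 1.98 ± 0.597 (SD, n = 4). The adjusted p from edgeR was 0.836 for Ick and 0.992 for C920006O11Rik.

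3 other misc_RNA genes among the 126 resemble part of 7SK at 71.6% to 79.5% identity over 51.4% to 74.4% of their length. The most abundant of them, Gm25082 (chr11:51270435-51270689, plus strand, within an exon of Clk4), had 28, 17, 23 and 27 counts in Ctrl and 20, 19, 16 and 26 in KO. Its log2 fold change was -0.47 (standard error 0.24, edgeR adjusted p = 0.640), not in the direction of Rn7sk, and the genotypes overlapped. Gm25082 shares bases with the Clk4 exon on the same strand, so which gene its reads came from cannot be told. Clk4 itself had a log2 fold change of -0.19 (standard error 0.13).

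**Figure D1:**
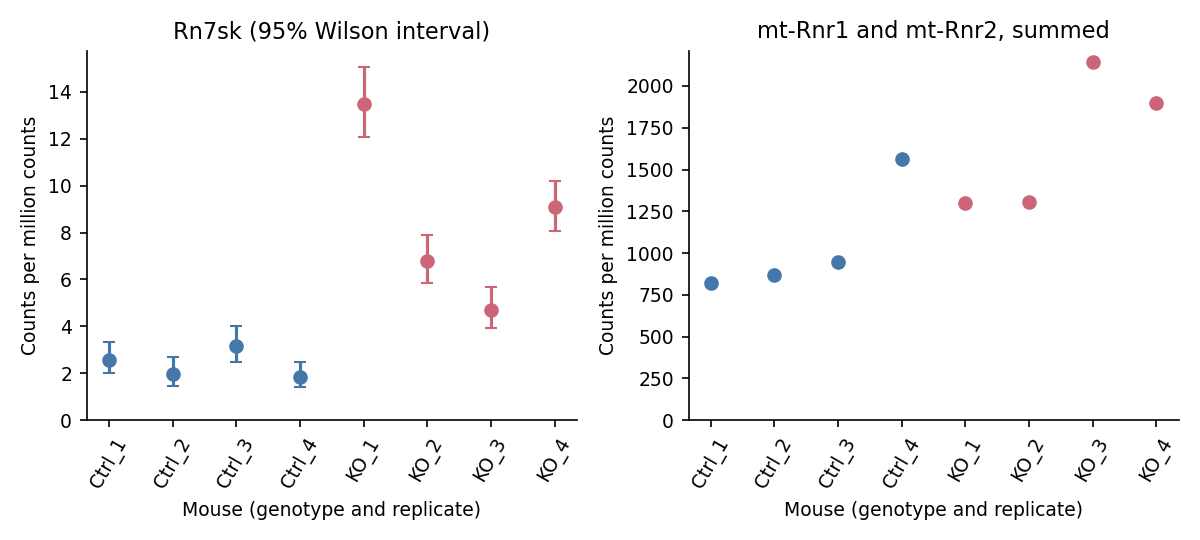
Raw CPM in each of the 8 mice, Ctrl in blue and KO in red, for Rn7sk on the left with 95% Wilson intervals and for the summed mitochondrial rRNAs mt-Rnr1 and mt-Rnr2 on the right. Rn7sk lies between 1.86 and 3.15 in Ctrl and between 4.72 and 13.5 in KO, and the mitochondrial rRNAs lie between 819 and 1563 in Ctrl and between 1298 and 2145 in KO.

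Other transcripts that lack a long poly(A) tail were compared beside Rn7sk, since their share of a library can move with how its RNA was selected. The 2 mitochondrial rRNAs summed to 819, 868, 945 and 1563 raw CPM in Ctrl and to 1298, 1305, 2145 and 1897 in KO, higher in KO in all 4 same-numbered pairs. mt-Rnr1 had a log2 fold change of 0.85 (standard error 0.26, unadjusted p = 0.00896, edgeR adjusted p = 0.518), and mt-Rnr2 one of 0.52 (standard error 0.27, adjusted p = 0.641). The genotypes overlapped in both rRNAs, Ctrl replicate 4 lying above KO replicates 1 and 2. They also overlapped in the other such transcripts compared. Replication-dependent histone genes summed to 124 to 165 raw CPM in Ctrl and 124 to 169 in KO, and nuclear genes annotated as rRNA to 7.38 to 11.8 and 5.84 to 8.17. The part of mitochondrial rRNA content in the Rn7sk result was not tested. In RNA of whole crypts, fewer cells of a type and less RNA per cell cannot be told apart.

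Of 13 tested genes for proteins of the 7SK particle, the unadjusted p was under 0.05 in 1 that was higher and in 1 that was lower in KO, where 8.38% of all genes tested were under it, and 0 passed adjustment with edgeR. The median log2 fold change was -0.04, against -0.02 over all genes tested. Hexim1, the inhibitor that 7SK carries, had 83.0 to 105 CPM in Ctrl and 108 to 117 in KO, with every KO mouse above every Ctrl mouse (log2 fold change 0.23, standard error 0.08, unadjusted p = 0.0200, edgeR adjusted p = 0.533). Ccnt2, a cyclin of P-TEFb, went from 86.1 ± 4.46 to 77.2 ± 4.03 CPM (SD, n = 4; log2 fold change -0.16, unadjusted p = 0.0431, adjusted p = 0.582).

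Most of the other housekeeping RNAs looked up by name had few counts or none, and reads of a gene with near-identical copies can be dropped in counting. Over all 8 mice, Rn7s1 and Rn7s2, the RNA of the signal recognition particle, had 1 and 7 counts. Rpph1, the RNA of RNase P, had 2 counts, Rny1 had 2, and Vaultrc5, the vault RNA, had 4. Rmrp, Rny3, Rnu11 and Rnu7 had 0 counts among 190647268, which allows a share of up to 0.0157 raw CPM (3 counts; counting error only), and the minor spliceosomal RNA Rnu12 had 36. Of the 3527 genes in these classes, 2648 had no count in any mouse.

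Terc, the RNA template of telomerase (ENSMUSG00000064796, chr3:96414437-96414859, minus strand), also met the limit. It had 7, 7, 13 and 13 counts in Ctrl and 22, 4, 20 and 18 in KO, so the genotypes overlapped. The log2 fold change was 0.46 with a standard error of 0.50 (edgeR adjusted p = 0.846).

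snoRNAs, the largest class, took up less of the KO libraries than of the Ctrl libraries. The 84 snoRNA genes summed to 65.1, 66.8, 53.6 and 55.8 raw CPM in Ctrl replicates 1 to 4 and to 55.0, 58.1, 43.4 and 41.9 in KO replicates 1 to 4. KO was lower in all 4 same-numbered pairs, while the ranges of the genotypes overlapped, because replicates 1 and 2 were above replicates 3 and 4 in both. The mean was 60.3 ± 6.58 in Ctrl and 49.6 ± 8.12 in KO (SD, n = 4), a ratio of 0.822. The same ratio was 0.814 for the 21 box C/D RNAs with a Snord symbol, 0.817 for the 11 box H/ACA RNAs with a Snora symbol and 0.830 for the other 52 snoRNA genes. KO was lower in 3 of 4 pairs for the box C/D RNAs and in all 4 for the other sets. The 40 snoRNA genes left out by the filter of edgeR gave 0.890, also lower in 3 of 4 pairs. The 5 scaRNA genes gave a ratio of 0.730, at 2.36 ± 0.285 raw CPM in Ctrl and 1.72 ± 0.361 in KO (SD, n = 4), lower in 3 of 4 pairs, and the 4 without Gm23119 one of 0.878, lower in 2 of 4 pairs. The 25 snRNA genes gave a ratio of 0.993 and the 11 misc_RNA genes other than Rn7sk one of 0.983.

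**Figure D2:**
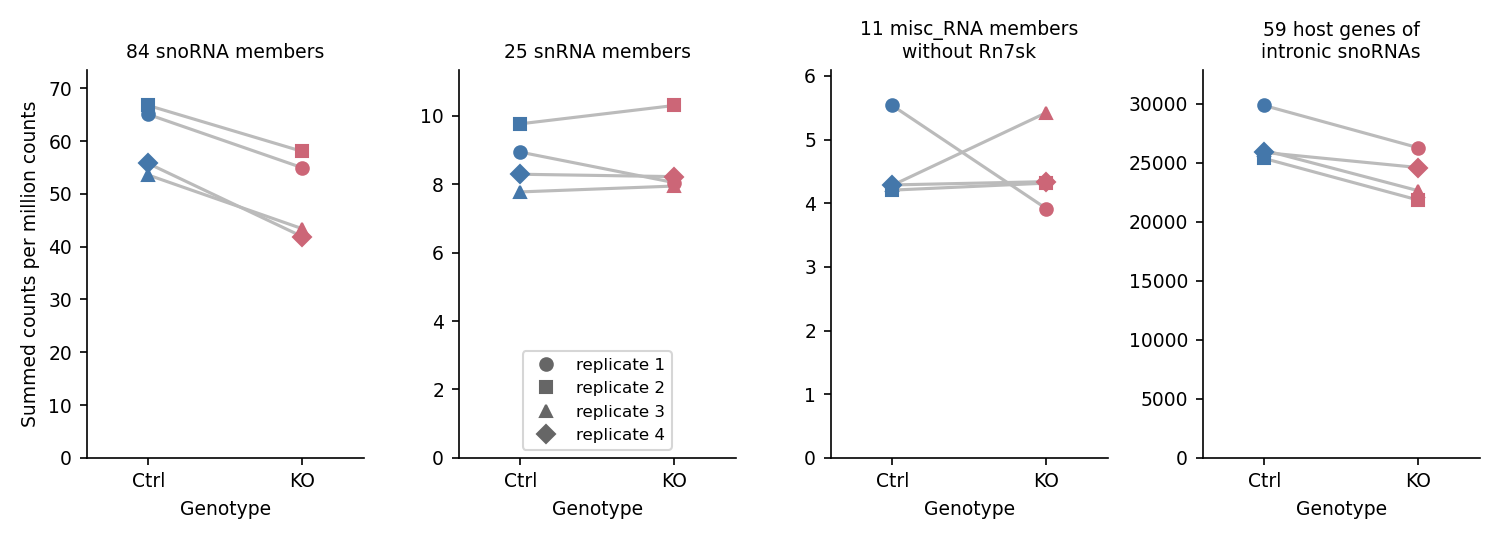
Summed raw CPM in each mouse, for the snoRNA genes, the snRNA genes, the misc_RNA genes without Rn7sk and the genes whose introns hold snoRNAs; marker shapes stand for replicates and grey lines join mice with the same replicate number. The snoRNA sums lie between 53.6 and 66.8 in Ctrl and between 41.9 and 58.1 in KO, and the line of every pair slopes down.

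All 126 genes together made up 78.3 ± 7.40 raw CPM in Ctrl and 73.0 ± 10.2 in KO (SD, n = 4), and without Rn7sk 75.9 ± 7.59 and 64.4 ± 8.64. The mean of KO was below that of Ctrl in 83 of the 126 (65.9%), and in 53.7% of the other 7477 genes whose summed counts lie in the range of the members. It was below in 46 of the 58 members tested (79.3%) and in 37 of the 68 with too few counts for a test (54.4%). By class, KO was lower in 62 of 84 snoRNA genes, 11 of 25 snRNA genes, 4 of 5 scaRNA genes and 6 of 12 misc_RNA genes.

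Of the 126 genes, 58 had enough counts for edgeR's filter, and the other 68, with sums of 41 to 78 counts, did not. The filter asks for a minimum level in as many mice as 1 genotype holds, so a gene could pass through the genotype in which it is high. Of the 58, 0 passed at an adjusted p under 0.05 with edgeR (0.00621% of all 16109 genes did, Mex3a alone), and 1, Rn7sk, did with DESeq2 (0.578% of all genes, 93 of 16090). At an unadjusted p under 0.05 there were 6 of the 58, against 8.38% of all genes tested. With DESeq2 there were 4 of the 58, against 9.09% of all genes, with Gm22753 (unadjusted DESeq2 p 0.0831) and Snora78 (0.0511) no longer among them. Of these 6, Rn7sk was the 1 that was higher in KO (5.33% of all genes) and 5 were lower (3.05% of all genes). The genotypes did not overlap in 5 of the 58, against 4.05% of all genes. The 4 below Ctrl were Gm23301, Gm22753, Gm26287 and Rnu73b, the last 2 named after their values were seen. The median log2 fold change was -0.27 over the 58 and -0.05 over the 3132 tested genes with a mean under 1.5 CPM. The 44 snoRNA genes tested had a median of -0.30, which lay between -0.29 and -0.31 with RLE and upper-quartile factors, and without the filter the median of all 126 members was -0.23. The count of 6 was 3 without Ctrl replicate 3 (6.27% of all genes then) and 10 without the filter, when all 126 were tested (6.43% of all genes).

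**Figure D3:**
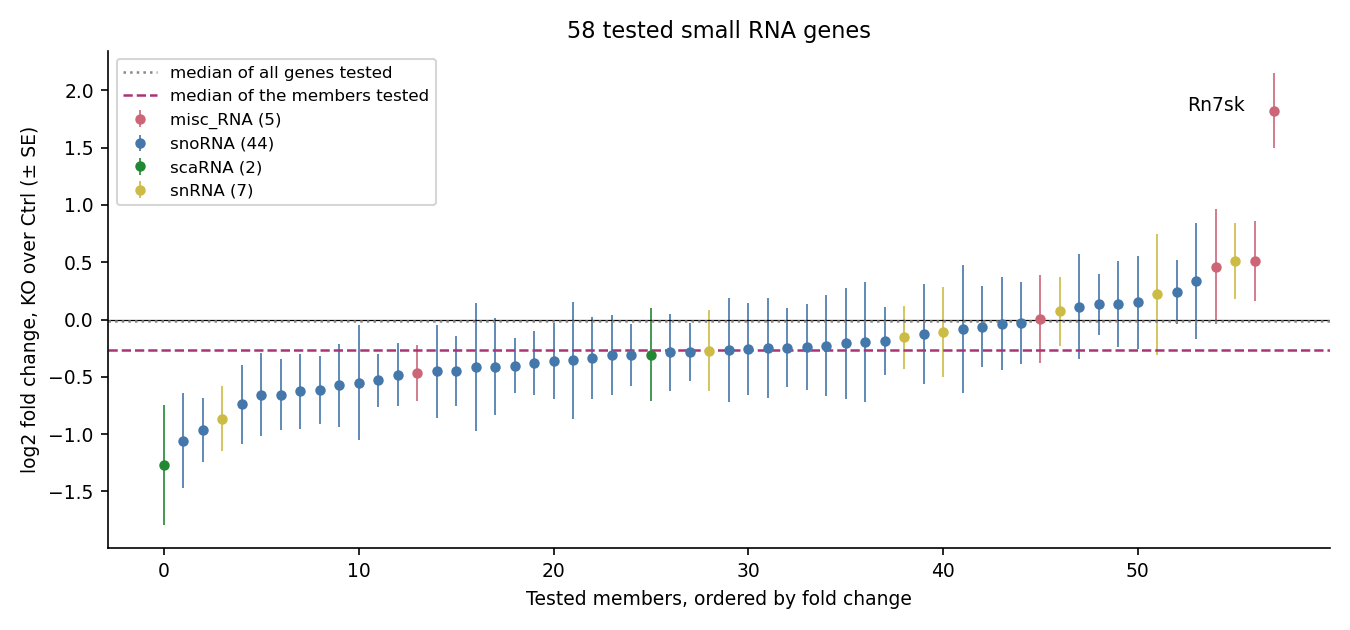
Log2 fold change of KO over Ctrl, with its standard error, for the 58 tested small RNA genes in order of the change and coloured by class; the dashed line is their median, -0.27, and the dotted line that of all genes tested, -0.02. Rn7sk stands at 1.82 and the next highest member at 0.51, and 45 of the 58 lie below 0 (77.6%, against 53.9% of all genes tested).

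Of the 5 members that were lower in KO at an unadjusted p under 0.05, the genotypes did not overlap in 2. Gm23301, a snoRNA gene in an intron of the ribosomal protein gene Rpl17 (ENSMUSG00000064647, chr18:75001455-75001519, plus strand), had 18, 20, 14 and 29 counts in Ctrl and 13, 13, 9 and 13 in KO. After normalization every KO mouse was below every Ctrl mouse, with a log2 fold change of -0.97 (standard error 0.28, unadjusted p = 0.00688, edgeR adjusted p = 0.518). Gm22753, an snRNA gene opposite an intron of Usp34 (ENSMUSG00000065591, chr11:23479561-23479667, minus strand), had 13, 10, 11 and 16 counts in Ctrl and 7, 9, 6 and 10 in KO, again without overlap after normalization (log2 fold change -0.87, standard error 0.28, unadjusted p = 0.0128, edgeR adjusted p = 0.518). Its DESeq2 p of 0.0831 was above 0.05, while that of Gm23301 was 0.0229.

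In the other 3 the genotypes overlapped. Snord104, next to Snora31 in summed counts among the snoRNAs, had 66, 97, 109 and 139 counts in Ctrl and 92, 90, 69 and 79 in KO (log2 fold change -0.53, standard error 0.23, unadjusted p = 0.0482, edgeR adjusted p = 0.589). Gm23119, a scaRNA gene without a host (chr18:74778561-74778700, minus strand), had 15, 17, 19 and 12 counts in Ctrl and 12, 2, 3 and 14 in KO, with the lowest counts in KO replicates 2 and 3 (log2 fold change -1.27, standard error 0.52, unadjusted p = 0.0367 with edgeR). After normalization KO replicate 1, at 0.504 CPM, was level with the lowest Ctrl mouse, at 0.501, and the other KO mice were below it. Snora78, in an intron of Snhg9 and named after its values were seen, had 14, 11, 23 and 17 counts in Ctrl and 7, 6, 15 and 8 in KO (log2 fold change -1.06, standard error 0.41). In the edgeR fit blocked on replicate number, the unadjusted p was 0.0977 for Snord104 and 0.0537 for Gm23119, both above 0.05, and 0.0104 for Snora78. Over the alternatives in which each was tested, the unadjusted p was under 0.05 in 7 of 16 for Snord104, 9 of 15 for Gm23119 and 10 of 15 for Snora78, against 14 of 15 for Gm22753 and all 15 for Gm23301.

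Of the other most abundant guide RNAs, the 3 with a Snora or Snord symbol had an unadjusted p of 0.05 or above with edgeR. Snora31, in an intron of the translation-associated gene Tpt1, had 132, 93, 97 and 81 counts in Ctrl and 111, 78, 83 and 83 in KO (log2 fold change -0.40, standard error 0.24). Blocking on replicate number brought its unadjusted p to 0.0406 in edgeR. Snora57, opposite an intron of Lbhd1, had 65, 109, 34 and 53 counts in Ctrl and 73, 71, 41 and 62 in KO (log2 fold change -0.31, standard error 0.35). Snord55, a box C/D RNA, had 48, 54, 34 and 19 counts in Ctrl and 38, 62, 30 and 52 in KO (log2 fold change -0.03, standard error 0.36). The edgeR adjusted p was 0.679, 0.853 and 0.991 for these 3, and in each the genotypes overlapped.

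The remaining abundant members also lay within the spread of the mice. Gm25835, a snoRNA gene in an intron of the translation initiation gene Eif4a1, had 35 to 71 counts in Ctrl and 29 to 54 in KO (log2 fold change -0.48, standard error 0.27). Gm27572, a misc_RNA gene opposite an intron of Pde4d, had 11 to 18 and 11 to 35 counts (0.51, 0.35), and Gm26407, in an intron of Impact, 8 to 12 and 5 to 16 (0.00, 0.38). Among snRNA genes, the log2 fold change was -0.27 for Gm23458, 0.07 for Gm22107, -0.16 for Gm25596 and -0.11 for Gm24400. Of the scaRNA genes, Gm25492, in an intron of Bud23, gave -0.31 (standard error 0.41), while Gm24644, Scarna2 and Gm22009, with 1 to 15 counts per mouse, were not tested. The edgeR adjusted p was 0.666 or above for each of those tested.

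Most of these genes lie within other genes. Of the 126, 93 are in an intron of a gene on the same strand, 21 in an intron of a gene on the other strand, 3 in an exon of a gene on the same strand and 9 overlap no other gene. The 93 lie in 78 host genes, 70 of them protein-coding and 14 of them ribosomal protein genes, which hold 21 of the 93. Rpl17 and 2410006H16Rik hold 3 each (Gm23301, Gm26202 and Snord58b in Rpl17, and Snord49a, Snord49b and Snord65 in 2410006H16Rik). Reads of an intronic RNA and of the unspliced transcript of a host on the same strand cannot be told apart in these counts. For hosts on the other strand this depends on whether the counting kept the strand, which is not given in the sources used here. The median intronic gene had 2.73 counts per 1000 host counts. In 3 of the 93 the summed counts were above those of the host, namely Snora78 (101, and 4 for Snhg9), Rnu1a1 (55) and Gm22068 (49, and 34 for Tex14), these 3 named after their values were seen.

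The hosts of snoRNAs also had a lower sum in KO. The 59 hosts of the 73 intronic snoRNA genes summed to 26794 ± 2065 raw CPM in Ctrl and 23841 ± 1996 in KO (SD, n = 4), a ratio of 0.890, and were lower in KO in all 4 same-numbered pairs, while the 73 snoRNA genes gave a ratio of 0.836. Among 42 intronic members tested together with their host, the median log2 fold change was -0.26 for the members and -0.10 for their 37 hosts. The member's log2 fold change was below that of its host in 31 of the 42, and both were below 0 in 30. This difference was not tested. For 2 of the members described above, the host values were -0.40 (standard error 0.49) for Rpl17 and -0.13 (standard error 0.09) for Tpt1.

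**Figure D4:**
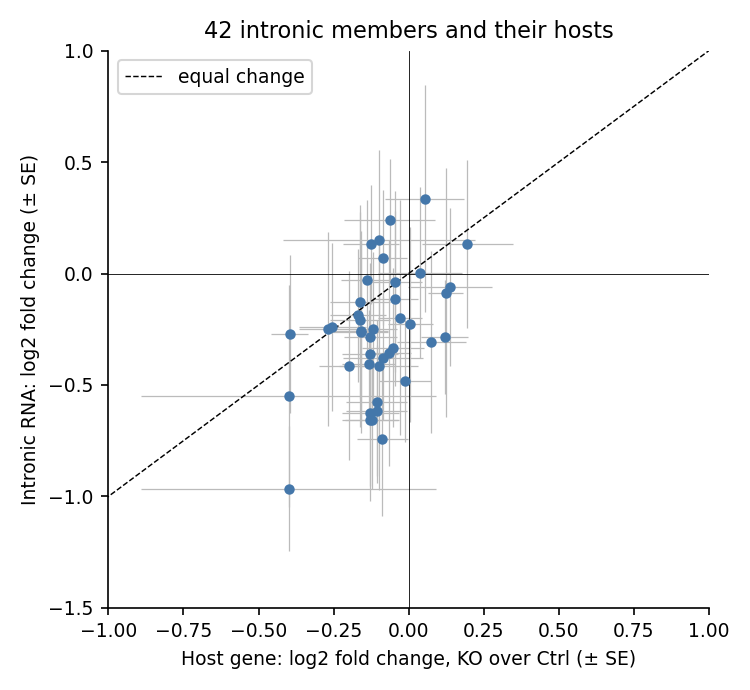
Log2 fold change of KO over Ctrl of 42 intronic members against that of the host gene, each with its standard error; the dashed line marks equal change. Hosts lie between -0.40 and 0.20, and 31 of the 42 points lie below the line.

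Box sequences were searched in the GENCODE M21 transcripts, on the transcribed strand. Box C/D was taken as TGATGA in the first 15 bases with CTGA in the last 12, and box H/ACA as ACA in the last 7 bases with ANANNA between base 41 and the last 40 bases. Of the 84 snoRNA genes, 21 held box C/D and 35 (41.7%) box H/ACA, against 272 (19.1%) and 537 (37.7%) of the 1423 snoRNA genes below the limit. Among members, 13 of 21 with a Snord symbol held box C/D and 10 of 11 with a Snora symbol box H/ACA. No match says only that these letters are not in these windows.

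The snRNA genes that met the limit include copies of spliceosomal RNAs. Gm25047 (chrX:36363899-36364002, plus strand), the most abundant, resembles Rnu6, the U6 RNA of the spliceosome, at 78.5% identity and had 8, 20, 19 and 12 counts in Ctrl and 25, 25, 24 and 25 in KO. Its log2 fold change was 0.51 with a standard error of 0.33 (edgeR adjusted p = 0.714), and the genotypes overlapped. Rnu1a1 and Gm22068, U1 genes in introns of Tex14 with identical sequences, had 1 to 14 and 3 to 14 counts per mouse. Their levels are uncertain, since reads of identical copies can be split or dropped in counting. Of the 126 genes, 23 have a copy at 95% identity or more over 90% of their length, 18 of them snoRNA and 5 snRNA genes.

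Over all 10 lists of genes for the proteins of these particles, 141 genes were tested, of which 6 had an unadjusted p under 0.05, 2 of them higher and 4 lower in KO. Of all genes tested 8.38% were under it (5.33% higher and 3.05% lower), and 0 of the 141 passed after adjustment with edgeR. Leaving out KO replicate 1 gave 23 in place of the 6 (13% of all genes then), leaving out KO replicate 2 gave 3 (7.73%), and with KO replicate 4 left out there were 2 (6.16%). In the box C/D list 1 of 11 was lower at that threshold, Znhit6, an assembly factor, at 19.8 to 21.9 CPM in Ctrl and 14.6 to 20.9 in KO (log2 fold change -0.31, edgeR adjusted p = 0.562). In the box H/ACA list all 10 had a log2 fold change below 0 (median -0.13), as had 102 of the 141 and 53.9% of all genes tested. In that list 1 was lower at an unadjusted p under 0.05, Gar1, a core protein, at 74.7 ± 5.32 and 65.0 ± 5.60 CPM (SD, n = 4; log2 fold change -0.20, edgeR adjusted p = 0.568).

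In the vault list, Mvp, the major vault protein, was at 179 ± 11.9 CPM in Ctrl and 229 ± 24.6 in KO, with every KO mouse above every Ctrl mouse (SD, n = 4; log2 fold change 0.36, unadjusted p = 0.00356, edgeR adjusted p = 0.518). Zcchc7, of the snoRNA processing and decay list, was at 55.3 ± 2.39 and 50.1 ± 1.45 CPM (SD, n = 4; log2 fold change -0.14, edgeR adjusted p = 0.585), with all KO mice below all Ctrl mice. None of the tested genes for RNase P and MRP (11), the signal recognition particle (10), Y RNA and La proteins (3), the spliceosomal snRNPs (32) or RNA polymerase III and snRNA transcription (29) had an unadjusted p under 0.05.

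Markers of the crypt and of other cells were compared beside the small RNAs. None passed adjustment, and 8.38% of all genes tested had an unadjusted p under 0.05. Of the crypt stem cell markers 3 of 4 (Lgr5, Olfm4 and Smoc2) were lower in KO at an unadjusted p under 0.05, and of the epithelial markers 2 of 4 (Krt8 and Vil1) were higher. Cd3e and Cd8a, T cell genes, were higher in KO at the same threshold (2 of 3 listed), the summed T cell list being 8.36 to 18.4 CPM in Ctrl and 12.8 to 37.3 in KO. None of the Paneth (3), cycling (2), villus enterocyte (3), B cell (3), myeloid (2) or stroma (3) markers had an unadjusted p under 0.05, nor had Pecam1, the 1 endothelial marker tested. Hba-a1, the 1 blood marker tested, was lower in KO at that threshold. The edgeR adjusted p was 0.518 to 0.593 for these 8 markers, and the genotypes overlapped in Lgr5, Vil1, Cd3e, Cd8a and Hba-a1. The part of these cells in the levels of the small RNAs was not tested.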

How the data were processed

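The deposited table holds, for every gene and mouse, the authors' unnormalized read count and an FPKM value, which relates that count to the length of the gene and the size of the library. The submitters' processing notes name CASAVA, HISAT2 2.0.5 and featureCounts 1.5.0-p3. Files and columns of the authors' own comparison (fold changes, p-values, called genes) were not used. All 126 members matched GENCODE M21 coordinates on GRCm38.

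Counts of all genes were fitted with edgeR 4.0.16 in R 4.3.3 (filterByExpr with minimum count 10, TMM, quasi-likelihood test, genotype as the only term), with Benjamini-Hochberg adjustment over 16109 genes and a threshold of 0.05. DESeq2 1.42.0, other size factors, filters, covariates and each mouse left out were alternatives. The fit was tested on simulated data. Copies were searched with BLAST 2.17.0. The members, lists and naming rule were chosen with earlier results of these data known. Named were the housekeeping RNAs, the 5 members of each class with most counts, and members at an unadjusted p under 0.05 without overlap between genotypes.

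Mice with the same replicate number deviated together from their group means (correlation 0.129 to 0.501 over genes in the 4 pairs). Mice with different numbers were not compared in this way. The Xist and Y groups follow the numbers in both genotypes, so these correlations cannot show that the numbers pair the mice. The main fit and its p-values did not use the numbers. They entered only in the replicate block and in the counts of same-numbered pairs. The labels do not say what a number marks. The mice were separate animals.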

Additional observations from a re-analysis of the deposited data

Results flagged for a closer look

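The mitochondrial rRNAs of Ctrl replicate 4 stood apart from the other control mice, at 1563 raw CPM (counts per 1000000 of the library) against 819 to 945. The gap to the nearest mouse was 0.830 of the range of the group, just past the 95% limit of Dixon's test for 4 values. Of 56 groups of 4 mice examined in this way, 1 was past the limit, where chance gives about 1 in 20.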

How the results depend on the processing

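Rn7sk was higher in KO under all 16 alternatives, with a log2 fold change of 1.52 to 2.01 and an unadjusted p of 0.0013 or less. Its adjusted p passed only with DESeq2 (log2 fold change 1.83, adjusted p = 9.39e-05, making 1 member called) and lay between 0.113 and 0.788 otherwise. The replicate block gave Rn7sk 1.76 on the log2 scale (edgeR adjusted p = 0.169). With the block 0 members passed at an adjusted p under 0.05, as without it. Over all genes 0 passed with the block, where 1, Mex3a, passed in the main fit. At an unadjusted p under 0.05 the block left 5 members (11.3% of all genes were under it), losing Snord104 (edgeR p 0.0977) and Gm23119 (0.0537) and adding Snora31 (0.0406). Members at an unadjusted p under 0.05 numbered 4 with DESeq2 (without Gm22753 and Snora78; 9.09% of all genes), 10 without the filter (126 members tested; 6.43%), 3 with at least 10 counts in every mouse (24 tested; 8.87%) and 3 to 8 when 1 mouse was left out (5.16% to 13%), the 3 being without Ctrl replicate 3 (6.27%). Genes of the particle lists at that threshold numbered 6, 12 with the Xist or Y group as a covariate (11.3% of all genes), and 2 to 23 when 1 mouse was left out (23 without KO replicate 1, 3 without KO replicate 2, 2 without KO replicate 4, where 13%, 7.73% and 6.16% of all genes were). The difference of the members' share, KO minus Ctrl, was -5.36 raw CPM, and 4.63 over the 9 members that overlap no other gene, which include Rn7sk. With 1 mouse left out it was -8.51 to -2.21. The causes were not tested. Among the named members, signs turned in these 6, none of which had an unadjusted p under 0.05. Over the alternatives, Snora57 lay between -0.50 and 0.0725, Snord55 between -0.28 and 0.18, Gm22107 between -0.0661 and 0.29, Gm25492 between -0.54 and 0.11, Gm24400 between -0.44 and 0.0354 and Gm26407 between -0.26 and 0.23. The replicate block gave 0.0326 for Snord55 and -0.0331 for Gm26407, the covariate 0.0254 and -0.0127, and upper-quartile factors -0.0128 for Gm26407. Members with few counts limit what these depths can show.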
